A study of Mus musculus with 29 samples.

Results

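A set of 9 genes of mouse lung was examined probe by probe, chosen by the size of their rise, or of its shift over time, under the synthetic glucocorticoid dexamethasone. The genes are Doc2b, Serpina3k, Fam107a, Kcnt1, Kcnab1, Kcnv2, Greb1, Lrrc4 and Sh3rf2, out of the 15350 genes with a usable probe. Every probe whose accession matched one of them was taken, which gave 12 probes, 3 for Kcnt1, 2 for Kcnab1 and 1 for each of the others. All 12 passed the filter on dim probes. Because the choice rested on the dexamethasone effects in these same arrays, those effects are given as a description, with no test. In 1 case the data went against the name of the set: Sh3rf2 was lower under dexamethasone, not higher.

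Total lung RNA was measured on 29 single-colour arrays. The mice were C57BL/6, 6 to 8 weeks old, and either wild type (WT) or Klf15-/- (KO), lacking the Krüppel-like transcription factor Klf15. They received saline or dexamethasone (dex) at 2.5 mg/kg and were studied at 4 or 8 h. The WT groups held 4 arrays for saline 4 h, 3 for saline 8 h, 4 for dex 4 h and 3 for dex 8 h. The KO groups held 3, 4, 4 and 4, respectively. The title of the series asks how the glucocorticoid receptor (GR) and Klf15 together shape gene expression over time. The labels call the samples biologic quadruplicates without saying more of the animals, so the p-values cover only the spread from sample to sample, which may be technical.

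The glucocorticoid receptor is a nuclear receptor that waits in the cytoplasm bound to chaperones. On binding a steroid it enters the nucleus and binds DNA at short, imperfect palindromes, or is tethered to other factors, and it can raise or lower transcription. Klf15 is itself a target of the receptor and binds GC-rich and CACCC-type elements, so that the pair can act on common genes at different times. Lung is a classical glucocorticoid tissue, in which the hormone acts on epithelium, vessels and immune cells.

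Promoter sequence was examined for 4 of the 9 genes (RefSeq, GRCm38.p6), with a single chromosome left out of the search for members. A gene without a stretch here is therefore not known to lack an entry. Of their 9 stretches 3 are shown, with and without a match to the receptor's element or its arm. Each is the 250 bases before an annotated start, 5′ to 3′ on the gene's strand. Capitals in the first mark a match to the relaxed palindrome GNACANNNTGTNC with the overlapping arm TGTTCT, and, further 5′, a single arm on the other strand. Capitals in the second mark a single arm. The third, which holds neither, is shown as the contrast.
Fam107a, chr14:8309778-8310027, minus strand: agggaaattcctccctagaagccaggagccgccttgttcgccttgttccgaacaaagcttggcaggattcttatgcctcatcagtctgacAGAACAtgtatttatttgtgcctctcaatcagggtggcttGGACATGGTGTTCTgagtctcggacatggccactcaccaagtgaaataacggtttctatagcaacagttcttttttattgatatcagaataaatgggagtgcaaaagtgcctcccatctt
Kcnab1, chr3:65108764-65109013, plus strand: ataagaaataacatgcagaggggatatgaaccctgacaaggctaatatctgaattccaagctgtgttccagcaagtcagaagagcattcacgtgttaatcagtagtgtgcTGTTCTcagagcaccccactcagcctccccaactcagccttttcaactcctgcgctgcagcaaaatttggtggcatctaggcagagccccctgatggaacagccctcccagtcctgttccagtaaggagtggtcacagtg
Lrrc4, chr6:28831748-28831997, minus strand: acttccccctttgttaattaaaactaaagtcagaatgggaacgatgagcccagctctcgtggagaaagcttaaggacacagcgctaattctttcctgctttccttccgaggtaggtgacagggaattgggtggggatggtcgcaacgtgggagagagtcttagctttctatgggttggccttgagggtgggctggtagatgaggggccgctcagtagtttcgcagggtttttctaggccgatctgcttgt

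The palindrome match in the Fam107a stretch began at position -120 from the start. Over all 32851 promoters of the same table, each 300 bases long, 0.475% held that relaxed palindrome on either strand. The arm TGTTCT, searched on both strands and counted also inside a palindrome, was in 19% of them. The full palindrome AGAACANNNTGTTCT was in 0.00913% and in none of the 9 stretches of the 4 genes. The CACCC-box letters CCACCC were in 31.5% of all promoters, and the Lrrc4 stretch held them at 2 places on the other strand and the Fam107a stretch at 1, in lower case here. Of the stretches not shown, chr14:8309780-8310029 of Fam107a overlaps the one shown and held the same matches. The stretches of Greb1, chr14:8317608-8317857 of Fam107a, and chr3:64948962-64949211 and chr3:65187853-65188102 of Kcnab1 held neither relaxed palindrome nor arm. A match describes letters and not a bound site, and the arrays do not say from which start the RNA came.

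Levels are on a log2 scale with the 75th percentile of the same array as 0, so that a difference of 1 is a doubling. Probes of a gene are numbered from 1 in the order of their mean signal. A probe counts as measured on an array where the scanner software marked its spot as well above background. Between 75.5 and 88.5% of spots were so marked on single arrays. The precision of each value is limited by how many arrays a group has. Where no array of the lower group had the probe well above background, only a bound can be given, written "at least". For it, each array of the lower group counts with its own signal or with the dimmest signal that was well above background there, whichever was higher, and their mean is set against that of the higher group. Klf15 itself lay between -3.52 and -1.90 by one probe on KO arrays and between -1.02 and 1.32 on WT arrays. By the other probe it lay between -0.88 and 1.37 on KO arrays and between 1.95 and 4.29 on WT arrays, so that genotypes did not overlap by either. The sources do not say if either probe lies within the deletion, outside of which it would be no check.

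For the 2546 genes with probes of clearly different brightness, the mean log2 ratio of the brighter to the dimmer probe, centred over arrays, was -0.368 to -0.116 on the 7 KO saline arrays and -0.0836 to 0.286 on the 22 others. Values that involve KO saline stand beside that difference, whose part in them was not tested. All 10 lung epithelium markers, among them the surfactant genes and the club cell gene Scgb1a1, had a usable probe. Of these probes, 5 were well above background, with no outlier spot, on all arrays. The summed level of the 10 (linear, relative to the 75th percentile) was 392 to 893 on single arrays. B cell markers had sums of 6.09 to 13.3 on saline arrays and 1.69 to 3.59 on dex arrays, and 5 of 6 fell in each dex comparison. T cell markers had sums of 1.91 to 4.45 and 0.715 to 1.56, and 4 of 6 fell in each. Of 6 endothelium markers, 4, 3, 4 and 4 fell in WT 4 h, WT 8 h, KO 4 h and KO 8 h. In the KO at 8 h, 4 of 6 adipocyte, 3 of 8 liver, 4 of 9 neuron and glia and 3 of 10 lung epithelium markers rose. There 2 of the neuron and glia and 1 of the lung epithelium markers fell. Over all genes, 14.8, 8.66, 23.2 and 24.2% rose in WT 4 h, WT 8 h, KO 4 h and KO 8 h. The shares that fell were 21.1, 13.5, 18.2 and 17%. Of 10 liver symbols, listed because Serpina3k is a liver gene too, Ttr and Tf had no usable probe, while Trf did. The sums over the other 8 lay between 6.36 and 12.1. The part of these markers in the member values was not tested. In whole lung, fewer cells of a type and less RNA per cell cannot be told apart.

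Doc2b, a calcium sensor with C2 domains that promotes fusion of secretory vesicles, went from undetected to clearly measured at 4 h. On the WT saline 4 h arrays it read -8.95, -7.19, -9.00 and -8.27, none of them well above background. On WT dex 4 h arrays it read -2.93, -2.48, -2.72 and -3.02. In the KO it read -7.48 and -8.51 under saline at 4 h, the spot of replicate 43 being an outlier that was left out, and -2.56, -2.76, -2.74 and -2.91 under dex. Dex arrays lay far above saline arrays in both genotypes. Doc2b was at least 23.25-fold higher in WT and at least 26.9-fold higher in the KO at 4 h on this scale. Other background treatments gave smaller log2 differences, of 3.15 in WT and 3.07 in the KO in the deposited series table and 2.03 and 2.19 with normexp and quantile normalization.

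At 8 h Doc2b was above background in 7 of 7 saline arrays. It read -6.54, -6.30 and -6.62 in WT and -6.15, -6.73, -7.12 and -7.28 in the KO. Under dex at 8 h it read -2.79, -4.17 and -3.80 in WT and -1.77, -2.77, -2.60 and -2.37 in the KO. The difference under dex was 2.90 (SE 0.41) in WT and 4.44 (SE 0.35) in the KO, while at 4 h only the bounds above can be given. The 8 h differences were also smaller in the deposited series table (2.16 and 3.11) and with normexp (1.36 and 2.17). The WT dex mean was 0.80 lower at 8 than at 4 h, and the dex arrays of the 2 times overlapped.

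Serpina3k, a secreted serine protease inhibitor of the antichymotrypsin cluster, was at the edge of detection under saline. It was not well above background on any saline 4 h array, and at 8 h it was so on 1 of 3 WT and 2 of 4 KO arrays. The WT saline values were -7.21, -7.90, -7.62 and -7.92 at 4 h, and -6.84, -7.32 and -6.29 at 8 h. Under dex they were -3.23, -3.21, -4.15 and -2.91 at 4 h, and -3.75, -3.25 and -2.16 at 8 h. No dex array overlapped a saline array. The gene was at least 15.7-fold higher in WT and at least 13.2-fold higher in the KO at 4 h, and the differences at 8 h were 3.76 (SE 0.68) and 3.93 (SE 0.59). In the deposited series table the log2 differences at 4 h were 2.48 and 2.29, and with normexp 1.45 and 1.26, below those bounds. At 8 h they were 2.69 and 2.23 in the deposited series table, and 1.68 and 1.38 with normexp.

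The KO saline 8 h group of Serpina3k was wide, with -9.16, -7.34, -7.93 and -4.98. The highest of these, replicate 48, was also the highest of its group for Fam107a, Kcnt1, Greb1 and Lrrc4. Without it the dex effect in the KO at 8 h was 4.73. Members of this cluster are near-identical, and the probe may share signal with them. Serpina3c, Serpina3m, Serpina3n and Serpina3j each rose in all 4 dex comparisons, Serpina3m by 1.97, 1.72, 1.95 and 2.24 in WT 4 h, WT 8 h, KO 4 h and KO 8 h.

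Fam107a, an actin-binding protein known as a stress- and glucocorticoid-induced gene, was measured on all 29 arrays, and its replicates lay close together. WT saline arrays read -0.89, -1.32, -0.74 and -0.86 at 4 h, and 0.20, 0.36 and 0.47 at 8 h. KO saline arrays read -0.93, -1.13 and -0.83 at 4 h, and 0.37, 0.44, 0.59 and 0.87 at 8 h, so that saline levels at 8 h were the higher in both genotypes. WT dex arrays read 3.15, 3.26, 3.19 and 3.25 at 4 h, and 2.53, 2.03 and 2.15 at 8 h. KO dex arrays read 3.20, 3.59, 3.42 and 3.18 at 4 h, and 3.43, 2.94, 2.98 and 2.92 at 8 h. The order of the group means was saline 4 h, saline 8 h, dex 8 h and dex 4 h in both genotypes. The WT dex arrays of the 2 times did not overlap, while those of the KO did. The dex effect was 4.17 (SE 0.14) at 4 h and 1.89 (SE 0.16) at 8 h in WT, and 4.31 (SE 0.15) and 2.50 (SE 0.14) in the KO. Part of the smaller effect at 8 h came from the saline side: the saline mean was 1.29 higher at 8 h in WT, and the dex mean was lower by 0.98.

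**Figure D1:**
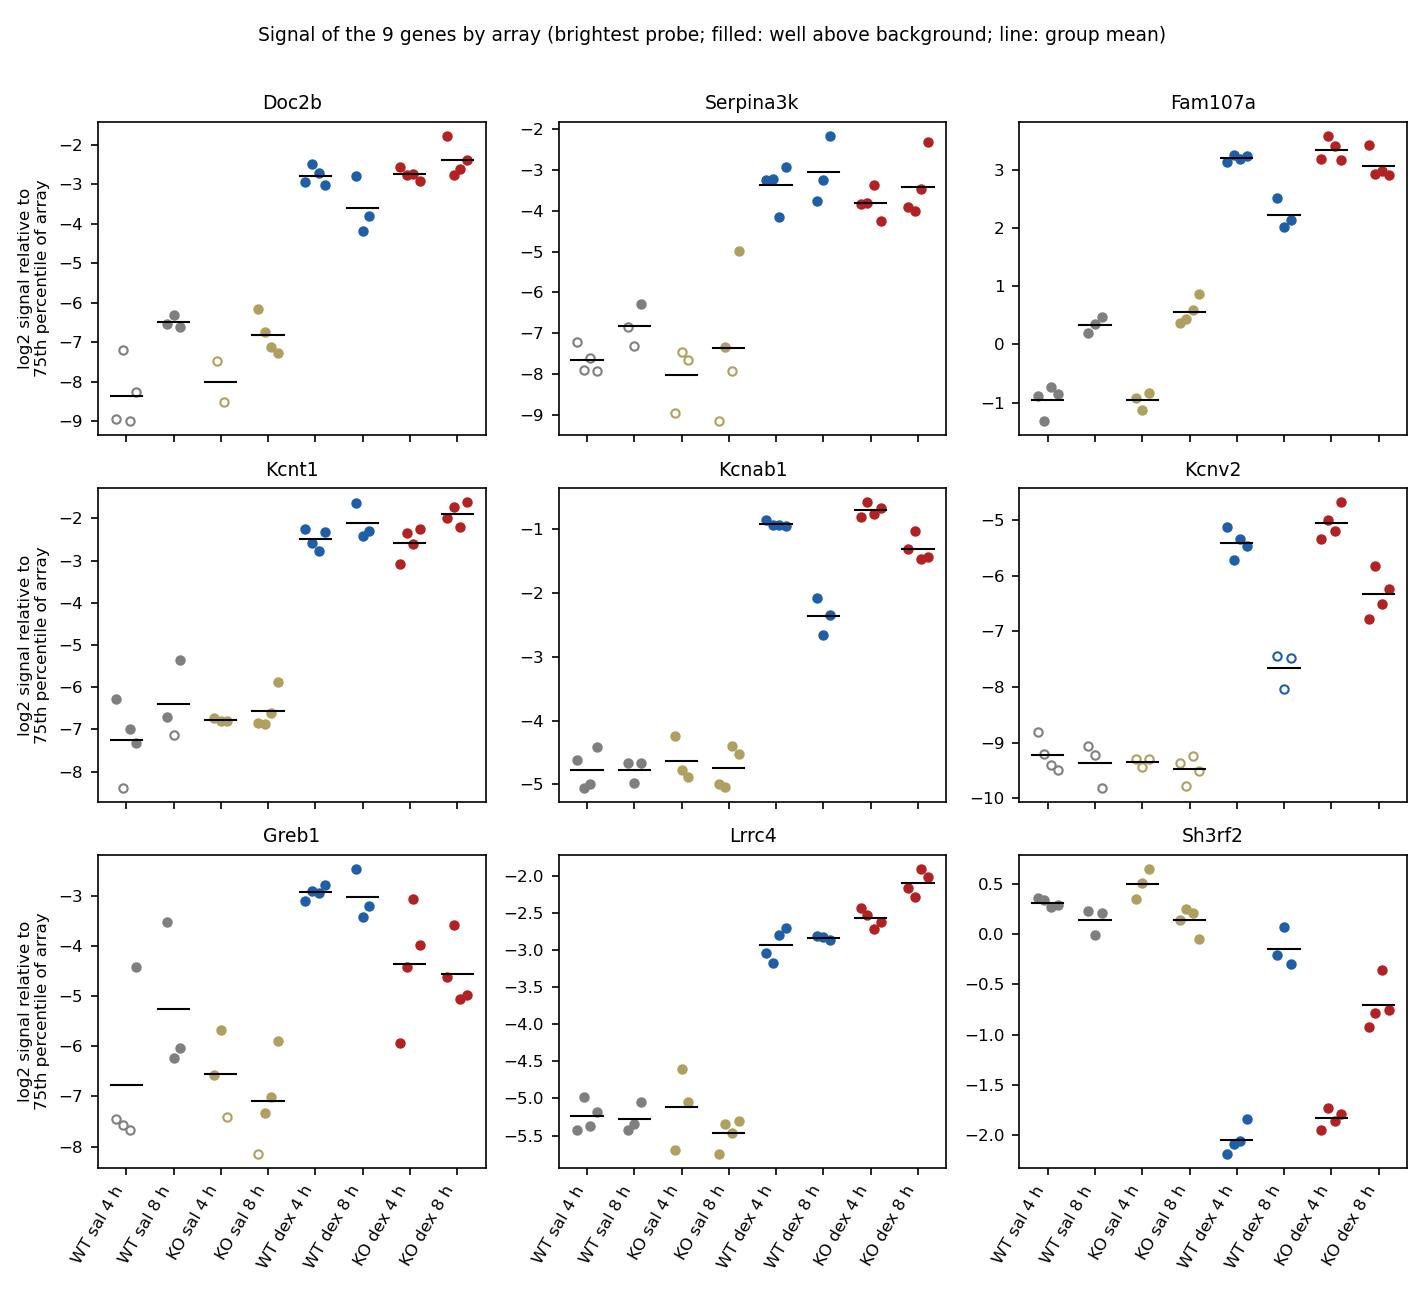
Log2 signal with the 75th percentile of each array as 0 (y axis) for the brightest probe of each gene on all arrays, in 8 groups (x axis); sal is saline, dex dexamethasone, filled points are well above background, open ones are not, and lines are group means. The 8 rising genes lie higher on dexamethasone than on saline arrays, with overlap for Greb1 in the KO at 4 h; Sh3rf2 is low at 4 h, about -2, and closer to saline at 8 h, and Kcnv2 has no filled point under saline.

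Kcnt1, Kcnab1 and Kcnv2 belong to potassium channels. Kcnt1 encodes a pore subunit of sodium-activated channels, Kcnab1 a beta subunit that binds Kv1 channels, and Kcnv2 a silent subunit that changes the behaviour of Kv2 channels when it joins them. Probe 1 of Kcnt1 lay between -8.38 and -5.35 on the 14 saline arrays, 12 of them well above background. It lay between -3.09 and -1.62 on the 15 dex arrays. No array of the 2 treatments overlapped. The dex effect was 4.76 (SE 0.36) and 4.28 (SE 0.42) at 4 and 8 h in WT. In the KO it was 4.21 (SE 0.39) and 4.67 (SE 0.36), so that in both genotypes it stayed at about its 4 h size. In each genotype and at each time it was smaller in the deposited series table, at most 3.44, and with normexp, at most 2.50.

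The 3 probes of Kcnt1 did not give 1 picture. Probe 2 was measured on all arrays and read -7.08 to -5.02 under saline and -4.75 to -3.49 under dex, again without overlap. Its dex effect was smaller at 2.20 (SE 0.28), 2.05 (SE 0.33), 1.08 (SE 0.31) and 2.87 (SE 0.28) in WT 4 h, WT 8 h, KO 4 h and KO 8 h. Probe 3 was well above background on 9 of 14 saline and 8 of 15 dex arrays, and gave -0.52 (SE 0.64), -0.07 (SE 0.74), 1.63 (SE 0.69) and 0.04 (SE 0.64). Over the 29 arrays probes 1 and 2 correlated with r = 0.925, probe 3 with r = 0.142 and 0.109 with these. The arrays share the treatment contrast, and these correlations describe it. The dex effects of probe 2 were also smaller in the deposited series table and with normexp.

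Kcnab1 differed as much between its probes. Probe 1 was measured on every array. It lay between -5.05 and -4.24 under saline, and read -0.85, -0.93, -0.93 and -0.95 in WT dex 4 h. In WT dex 8 h it read -2.08, -2.66 and -2.35. In the KO it read -0.81, -0.58, -0.76 and -0.66 at 4 h and -1.31, -1.02, -1.47 and -1.44 at 8 h under dex. The 2 times did not overlap in either genotype. The dex effect was 3.86 (SE 0.17) and 2.41 (SE 0.19) in WT, and 3.93 (SE 0.18) and 3.43 (SE 0.17) in the KO. In the deposited series table it was 3.36 and 2.10 in WT, and 3.63 and 2.91 in the KO. With normexp it was 2.67 and 1.56, and 2.92 and 2.30.

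Probe 2 of Kcnab1 was well above background on 6 of 14 saline and 5 of 15 dex arrays. It ranged from -9.58 to -4.65 under saline and from -9.30 to -4.94 under dex, and it did not follow probe 1 (r = -0.048). Its dex differences were -0.34 (SE 0.99), -0.54 (SE 1.15), -0.76 (SE 1.07) and 1.01 (SE 0.99). In 1 WT saline 4 h array, replicate 34, it read -4.65 while the others read between -9.47 and -9.12. The parts of the transcript that the probes match are not given in the files, and a splice form, a probe that does not bind and another cause cannot be told apart.

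**Figure D2:**
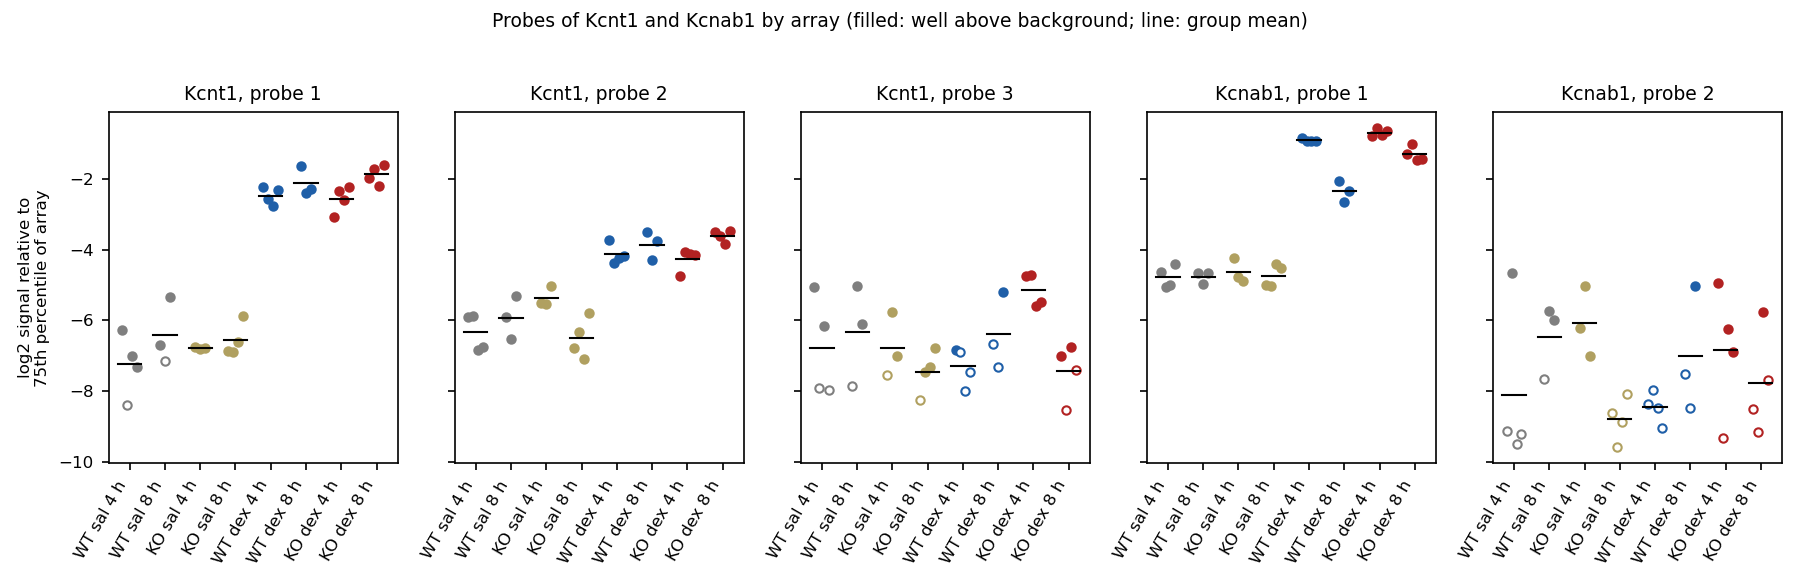
Log2 signal with the 75th percentile of each array as 0 (y axis, common to all panels) for 3 probes of Kcnt1 and 2 of Kcnab1 on all arrays by group (x axis); filled points are well above background and lines are group means. Probes 1 and 2 of Kcnt1 and probe 1 of Kcnab1 separate dexamethasone from saline, while Kcnt1 probe 3 and Kcnab1 probe 2 scatter across both with many open points.

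Kcnv2 was detected only under dex. It was well above background on 0 of 14 saline arrays, where it read -9.81 to -8.81. It was so on 4 of 4 WT dex 4 h arrays, with -5.13, -5.72, -5.33 and -5.47, and on 4 of 4 KO dex 4 h arrays, with -5.33, -5.00, -5.20 and -4.68. The bounds at 4 h were at least 3.825-fold in WT and at least 5.59-fold in the KO. They too depend on the background treatment, since the log2 differences were 1.40 and 1.66 in the deposited series table and 0.64 and 0.79 with normexp. At 8 h the genotypes parted: the WT dex arrays read -7.45, -8.03 and -7.48, none above background, and the KO dex arrays -6.78, -5.82, -6.50 and -6.23, all above it. No fold can be given for WT at 8 h, and for the KO it was at least 2.715-fold. The log2 difference for the KO at 8 h was 0.81 in the deposited series table and 0.36 with normexp, below that bound.

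Lrrc4, a leucine-rich repeat adhesion protein that binds netrin-G2 at synapses, was measured on all arrays. It lay between -5.75 and -4.60 under saline. WT dex arrays read -3.04, -3.17, -2.80 and -2.71 at 4 h and -2.81, -2.83 and -2.87 at 8 h. KO dex arrays read -2.43, -2.53, -2.72 and -2.62 at 4 h and -2.16, -2.29, -1.91 and -2.02 at 8 h. The KO dex level was higher at 8 h without overlap, while the WT groups overlapped. The dex effect was 2.31 (SE 0.17) and 2.44 (SE 0.19) in WT, and 2.54 (SE 0.18) and 3.37 (SE 0.17) in the KO. In the deposited series table it was 1.75 and 2.10 in WT, and 2.20 and 2.78 in the KO. With normexp it was 1.28 and 1.52, and 1.64 and 2.12.

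Greb1, a cofactor of the oestrogen receptor first known as an oestrogen-induced gene, varied widely between saline arrays. On WT saline 4 h arrays it read -7.46, -7.57 and -7.66, not well above background, and replicate 36 read -4.43, well above it. The WT saline 8 h arrays read -3.52, -6.23 and -6.03. WT dex arrays were close together at 4 h, with -3.10, -2.91, -2.94 and -2.79, and read -2.47, -3.43 and -3.20 at 8 h. In the KO, dex 4 h arrays read -5.94, -4.43, -3.07 and -3.99, and the lowest overlapped the saline arrays, which read -6.58, -5.68 and -7.42. At 8 h the KO arrays read -8.15, -7.34, -7.01 and -5.89 under saline and -4.63, -3.58, -5.06 and -4.99 under dex, without overlap. The dex effect was 3.85 (SE 0.70) and 2.22 (SE 0.81) in WT, and 2.20 (SE 0.76) and 2.53 (SE 0.70) in the KO. Each of these was smaller in the deposited series table, with a range of 1.33 to 2.44, and with normexp, 0.79 to 1.60. Without replicate 37 the WT effect at 8 h was 3.09, and without replicate 36 that at 4 h was 4.63.

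Sh3rf2, a RING and SH3 domain relative of the JNK scaffold POSH, went the other way. WT saline arrays read 0.36, 0.34, 0.27 and 0.29 at 4 h, and 0.23, -0.01 and 0.21 at 8 h. WT dex arrays read -2.19, -2.09, -2.06 and -1.84 at 4 h, and -0.21, 0.07 and -0.30 at 8 h. KO dex arrays read -1.95, -1.73, -1.86 and -1.79 at 4 h, and -0.92, -0.78, -0.36 and -0.75 at 8 h. At 4 h dex and saline were far apart in both genotypes, and at 8 h they overlapped in WT but not in the KO. The dex difference was -2.36 (SE 0.11) and -0.29 (SE 0.12) in WT, and -2.33 (SE 0.12) and -0.84 (SE 0.11) in the KO. The dex level was 1.90 higher at 8 than at 4 h in WT and 1.13 higher in the KO.

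**Figure D3:**
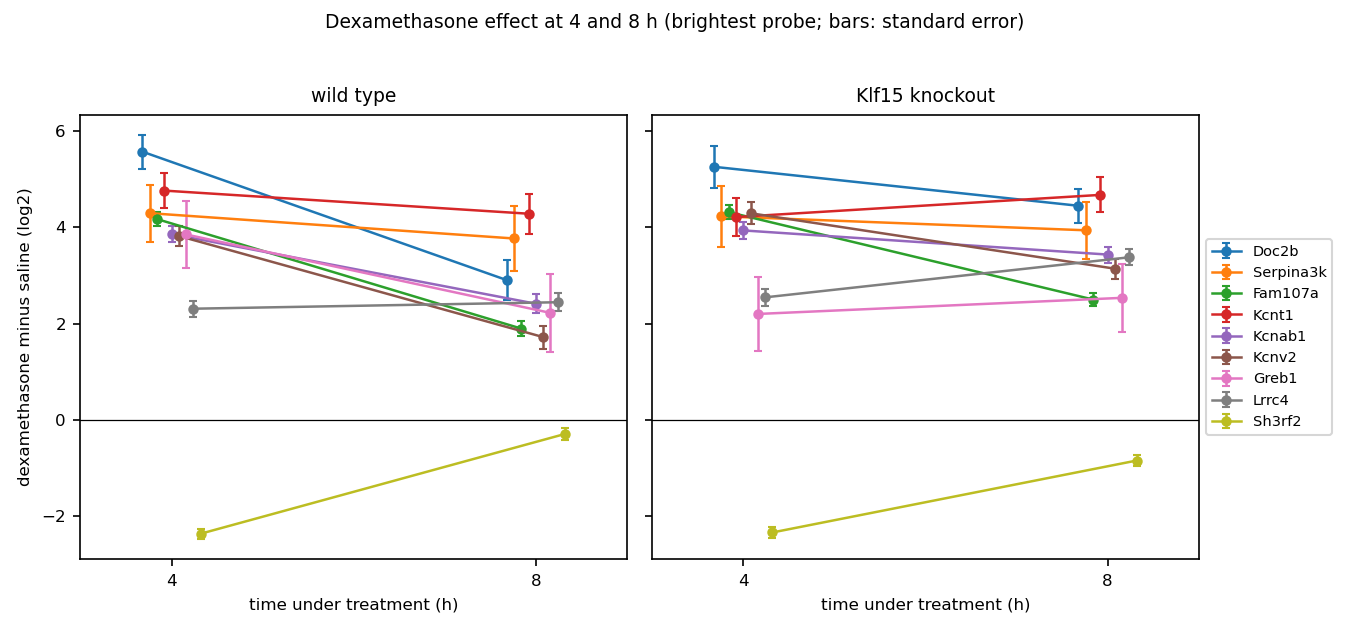
Dexamethasone minus saline on the log2 scale (y axis) at 4 and 8 h (x axis) for the brightest probe of each gene in wild type (left) and Klf15 knockout (right); bars are standard errors of the fit. The effects on Fam107a and Sh3rf2 are smaller at 8 h in both genotypes, those on Kcnt1 stay above 4 on this scale, and values of Doc2b and Serpina3k at 4 h and of Kcnv2 rest on saline arrays below background. Other background treatments gave smaller effects for dim probes.

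Over time most members fell into 2 patterns. Large rises or time shifts were the basis of the choice, so these patterns describe the choice and are no finding apart from it. How many of all probes overlap between the times under dex was not counted. Under dex, Fam107a and Kcnab1 were lower at 8 than at 4 h in WT, by 0.98 and 1.45, with no overlap, and Sh3rf2 returned towards its saline level. Kcnv2 went in WT from above background on 4 of 4 arrays to 0 of 3, again with no overlap. Kcnt1, Lrrc4, Serpina3k and Greb1 had WT dex means that differed between the times by 0.36 (probe 1), 0.09, 0.32 and -0.10, with overlap. Doc2b, 0.80 lower at 8 h in WT and 0.36 higher in the KO, overlapped between the times in both. In the KO the Kcnab1 and Kcnv2 dex means were lower at 8 h by 0.61 and 1.28, and those of Kcnt1 probe 1 and Lrrc4 were higher by 0.68 and 0.48, in each case with no overlap.

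On slides that held both arms of a dex comparison, the brightest probe of each gene and Kcnt1 probe 2 kept the direction of the fit. Kcnt1 probe 3 gave 1.08 and -1.82 on the 2 slides of WT 4 h and 0.89 in WT 8 h, and Kcnab1 probe 2 was above 0 in all 6 such differences, against fitted values below 0 in 3 of the 4 comparisons. Within slides the WT effect at 4 h was 3.93 to 4.13 for Fam107a, 3.49 to 4.06 for Kcnab1 probe 1 and -2.38 to -2.32 for Sh3rf2 on 2 slides. The widest was Greb1, with 1.52 to 4.73. In the KO at 8 h Serpina3k gave 3.88 to 6.86 and Lrrc4 3.44 to 3.73, and in WT at 8 h Kcnt1 probe 1 gave 3.05 and Doc2b 2.82 on 1 slide.

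Klf15 loss was not a basis for choosing the genes, and knockout minus wild type was tested with limma and adjusted over all 33931 probes. It is not wholly apart from the choice, because the same arrays also gave the dex effects and time shifts. Under dex at 8 h, 5 of the 12 probes passed at an adjusted p of 0.05, against 2.87% of all probes. Kcnv2 was higher in the KO by 1.32 (95% CI 0.85 to 1.78, adjusted p = 0.00168), or at least 1.70-fold, as no WT array was above background. Kcnab1 probe 1 was higher by 1.05 (0.68 to 1.43, adjusted p = 0.00179) and Fam107a by 0.83 (0.51 to 1.14, adjusted p = 0.00354). Lrrc4 was higher by 0.74 (0.37 to 1.11, adjusted p = 0.0249), and Sh3rf2 was lower by 0.56 on the log2 scale (-0.80 to -0.32, adjusted p = 0.00906). All 4 KO arrays lay to 1 side of all 3 WT arrays for these 5, and also for Greb1, which did not pass. How many of all probes separate in this way was not counted, so the separation adds no support to the calls.

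No slide held both genotypes under dex at 8 h, so that within-slide values cannot be had. With slide as a block, Sh3rf2 no longer passed (-0.48, adjusted p = 0.0614) and the other 4 did. The Lrrc4 call also ended on leaving out any 1 of 6 arrays, all 3 of WT and replicates 61, 63 and 64 of the KO (adjusted p = 0.0516 to 0.0841), and that of Sh3rf2 without WT replicate 55 (adjusted p = 0.0833) or with median scaling (adjusted p = 0.0973). Calls for Fam107a, Kcnab1 and Kcnv2 held in every alternative in which they were tested, with adjusted p up to 0.0365. The size for Kcnv2 fell to 0.58 in the deposited series table and to 0.31 with normexp, below the bound given above.

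Markers of other tissues were summed for the same comparison. The summed level of 6 adipocyte markers was 14 to 32.8 on KO dex 8 h arrays and 11.2 to 11.8 on WT ones, and that of 6 heart muscle markers 21.7 to 51.9 and 3.73 to 25.3. The heart muscle sums overlapped, and none of these 12 markers passed the genotype test at dex 8 h. Sums of 6 skeletal muscle markers were 0.571 to 1.98 on KO and 0.588 to 1.22 on WT arrays. The part of such markers in the genotype differences was not tested.

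The other probes did not pass under dex at 8 h. Doc2b was 1.21 higher in the KO (95% CI 0.42 to 1.997, adjusted p = 0.084), with 1 WT array, replicate 54, within the KO range. It passed without that array (1.61, adjusted p = 0.0424), in the deposited series table (1.10, adjusted p = 0.0326) and with normexp (0.88, adjusted p = 0.0109). Without that array the genotype difference in its dex effect passed too (1.94, adjusted p = 0.0471). Greb1 was lower by 1.53 (-3.10 to 0.04, adjusted p = 0.236), although the groups did not overlap. Kcnt1 probe 1 differed by 0.23 (-0.58 to 1.04) and Serpina3k by -0.37 (-1.69 to 0.96), and these wide intervals do not show equal levels. Replicate 54 was the highest WT array for 7 of the 8 rising genes and replicate 55 the lowest for 6.

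Under dex at 4 h no probe of the 9 genes passed, against 0.572% of all probes. Intervals for Fam107a (-0.16 to 0.42), Kcnab1 probe 1 (-0.13 to 0.56), Kcnv2 (-0.07 to 0.79) and Sh3rf2 (-0.01 to 0.44) hold no difference as large as the one at 8 h for that gene. Greb1 differed by -1.42 (-2.88 to 0.03, adjusted p = 0.628), and Kcnt1 probe 3, at the edge of detection, by 2.15 (0.82 to 3.48, adjusted p = 0.203).

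Under saline, 1 of the 12 probes passed at 4 h, against 18.4% of all probes, and none at 8 h, against 11.6%. It was Kcnt1 probe 2, higher in the KO by 0.98 (95% CI 0.35 to 1.61, adjusted p = 0.029), with KO arrays at -5.51, -5.53 and -5.02 and WT arrays at -5.89, -5.88, -6.82 and -6.74. Probe 1 of Kcnt1 gave 0.46 (-0.35 to 1.27, adjusted p = 0.425). The probe 2 call ended on leaving out WT replicate 35 or 36 or any KO array (adjusted p = 0.0502 to 0.128), with quantile normalization (0.48, adjusted p = 0.188) or normexp (0.13, adjusted p = 0.511), and in the deposited series table (0.23, adjusted p = 0.429). Probe 2 of Kcnab1 passed only without WT replicate 34 (3.18, adjusted p = 0.0261). These arrays include the KO saline group whose ratio of bright to dim probes stood apart.

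**Figure D4:**
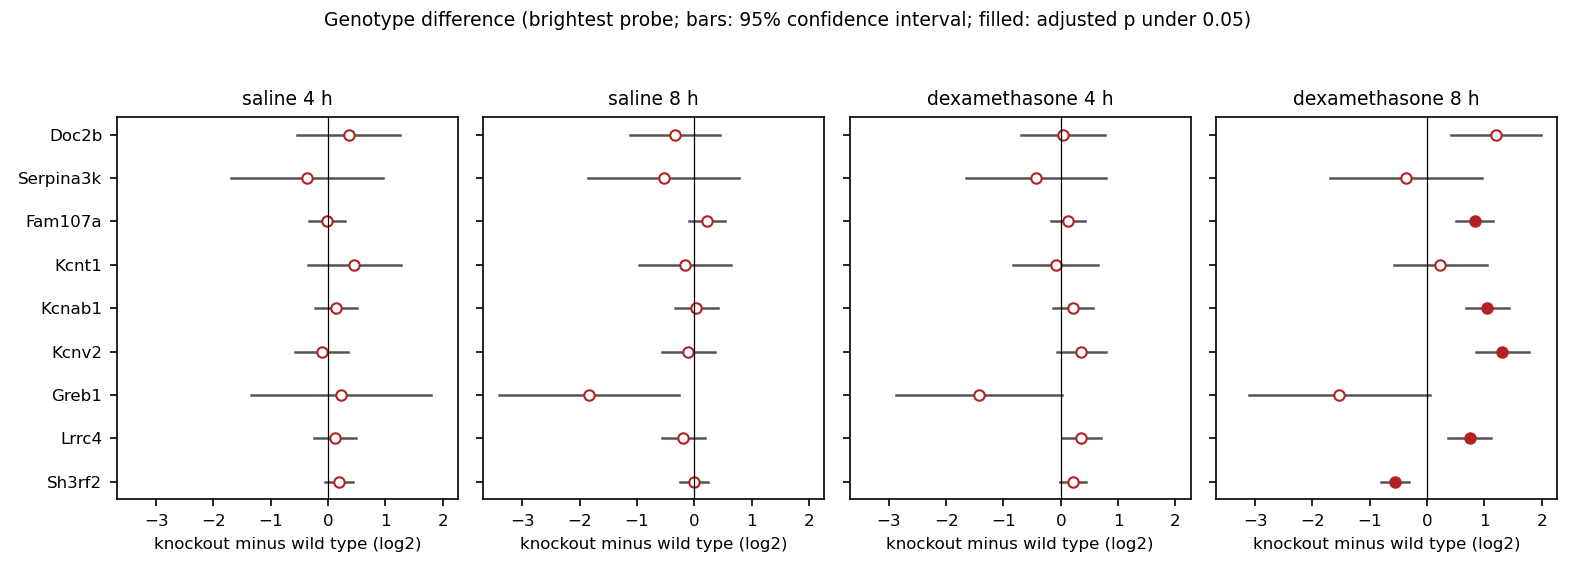
Knockout minus wild type on the log2 scale (x axis) for the brightest probe of each gene (y axis) in 4 settings; points are estimates, bars 95% confidence intervals and filled points passed at an adjusted p under 0.05. All 5 filled points are under dexamethasone at 8 h, 4 above 0 and Sh3rf2 below it at -0.56.

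The difference between the genotypes in the size of the dex effect was fitted directly. It is built from the same dex effects that served to choose the genes. Its p-values and counts therefore describe the set and are no independent test. At 8 h the difference passed for 3 of 12 probes, against 3.48% of all probes. It was 1.02 for Kcnab1 probe 1 (95% CI 0.49 to 1.55, adjusted p = 0.0324) and 0.93 for Lrrc4 (0.41 to 1.45, adjusted p = 0.0438), each a larger rise in the KO. The third was Kcnv2, with a fitted 1.42 (0.76 to 2.07, adjusted p = 0.0211), but 3 of its 4 groups had no array above background, so that it compares signals with no measured level and gives no size. For Fam107a it was 0.60 (0.16 to 1.05, adjusted p = 0.11), for Sh3rf2 -0.55 (-0.89 to -0.21, adjusted p = 0.0603) and for Doc2b 1.54 (0.43 to 2.66, adjusted p = 0.103). At 4 h no probe passed, against 8.93% of all probes. Kcnt1 probe 2 gave -1.12 there (adjusted p = 0.0903) and passed with slide as a fixed block (-1.62, adjusted p = 0.0214) or a random one (-1.38, adjusted p = 0.018).

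These 3 calls were less firm than those under dex alone. They held in 15 of 23 alternatives for Kcnv2, 14 of 24 for Kcnab1 and 9 of 24 for Lrrc4, and ended for all 3 with quantile normalization (adjusted p = 0.105, 0.101 and 0.186), as well as without WT saline replicate 37 (0.0525, 0.0688 and 0.0557) or WT dex replicate 55 (0.069, 0.102 and 0.0955). They ended also without WT saline replicate 38 for Kcnv2 (0.0534), without WT replicates 39 and 56 or KO replicates 46, 62 and 64 for Kcnab1 (0.0539 to 0.0683), and without WT replicates 38, 39, 54 and 56 or KO replicates 45, 46, 47, 63 and 64 for Lrrc4 (0.0558 to 0.0952). Slide as a fixed block ended those of Kcnv2 and Kcnab1 (0.0747 and 0.0758), median scaling those of Kcnab1 and Lrrc4 (0.0543 and 0.0994), and the deposited series table those of Kcnv2 and Lrrc4 (0.267 and 0.0784). That of Kcnv2 ended also with normexp (0.153) and with trend and robust variance (0.0715), and that of Lrrc4 with no filter (0.0596). The difference for Sh3rf2 passed without KO replicate 63 (-0.67, adjusted p = 0.0251), with the filter on all arrays (-0.55, adjusted p = 0.0484) and with 1 probe per gene (-0.55, adjusted p = 0.0445).

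Time under saline was compared as well, since a level that moves in controls enters every dex effect. These tests are not apart from the choice, because the same saline arrays entered the dex effects and time shifts behind it. Fam107a was higher at 8 than at 4 h by 1.29 in WT (95% CI 0.98 to 1.61, adjusted p = 0.000147) and by 1.53 in the KO (1.22 to 1.85, adjusted p = 8.96e-06), and no arrays overlapped. It passed in all 17 alternatives in each genotype, and on the slides that held both times it gave 1.68 in WT and 1.72 in the KO. Doc2b was higher at 8 h by 1.86 in WT (1.07 to 2.65, adjusted p = 0.0162), or at least 1.79-fold, and by 1.17 in the KO (0.28 to 2.07, adjusted p = 0.306), or at least 1.59-fold, with 2 arrays that had a value at 4 h, neither well above background. Within the 1 slide that held both times in WT, the Doc2b difference was smaller, 0.88, with the 4 h array not well above background. For the KO no such value could be had. The WT call for Doc2b held in 9 of 16 alternatives and ended without WT replicate 33, 37 or 39 (adjusted p = 0.0569, 0.0552 and 0.0824), with quantile normalization (adjusted p = 0.182), median scaling (adjusted p = 0.0506) or normexp (adjusted p = 0.771), and in the deposited series table (adjusted p = 0.643). No other probe of the set passed, although Kcnt1 probe 2, lower by 1.13 on the log2 scale at 8 h in the KO (adjusted p = 0.0993), did without replicate 48 (-1.37, adjusted p = 0.0461) and with slide as a random block (-1.05, adjusted p = 0.0354). Sh3rf2 in the KO passed with normexp (-0.42, adjusted p = 0.0397). The share was 1.54% of all probes in WT and 0.663% in the KO.

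**Figure D5:**
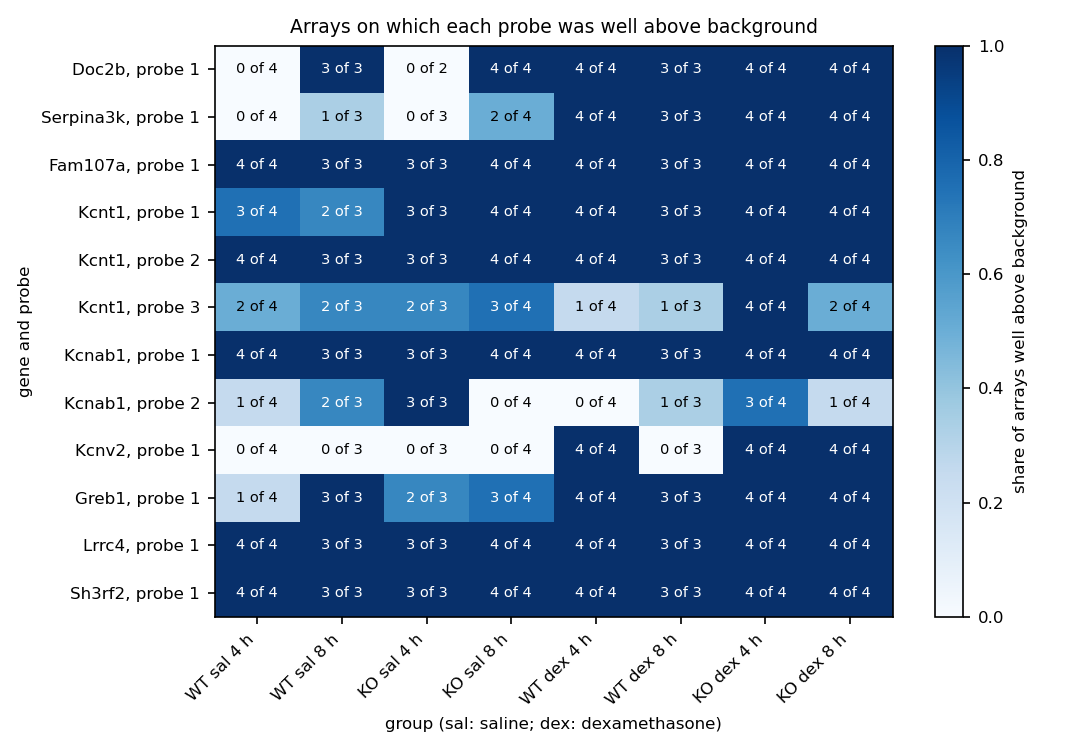
Number of arrays on which each probe (y axis) was well above background in each group (x axis), out of those with a value, shaded from 0 (white) to all (dark blue). Under saline, Kcnv2 is at 0 in all 4 groups and Doc2b and Serpina3k at 0 in both 4 h groups, while Fam107a, Lrrc4, Sh3rf2, Kcnt1 probe 2 and Kcnab1 probe 1 are measured on every array.

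The surrounding gene families were compared with the share of all genes called in each dex comparison. Here and in the lists below, a gene counts as measured where it had a usable probe. By the brightest probe of each gene, 14.8% of genes were higher and 21.1% lower in WT at 4 h, 8.66 and 13.5% in WT at 8 h, 23.2 and 18.2% in the KO at 4 h, and 24.2 and 17% in the KO at 8 h. Of 30 canonical glucocorticoid-induced genes, 29 were measured, and 25 rose and none fell in WT at 4 h, 13 rose and 1 fell in WT at 8 h, 24 and 0 in the KO at 4 h, and 23 and 1 in the KO at 8 h. Their median differences were 1.18, 0.47, 1.67 and 0.92, against -0.02, -0.06, 0.03 and 0.10 over all genes. Glul, glutamine synthetase, rose by 1.93, 0.85, 2.30 and 1.62, and Cdkn1a, the cell cycle inhibitor p21, by 3.05, 1.72, 3 and 2.30 in that order. Under dex at 8 h, 7 of the 29 were higher and none lower in the KO, against 2.31 and 1.51% of all genes, Cdkn1a by 1.18 (adjusted p = 0.000788) and the metallothionein Mt2 by 1.13 (adjusted p = 0.00358).

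The closest relatives of the members did not move as a block. Of 22, 16 were measured; 6 rose and 4 fell in WT at 4 h, 5 and 4 in WT at 8 h, 6 and 3 in the KO at 4 h, and 7 and 3 in the KO at 8 h. Those that rose in every comparison were the 4 serpins named above. Of all 10 other Serpina genes measured, 6, 4, 4 and 4 rose and none fell. Among the relatives of Sh3rf2, Sh3rf3 fell in all 4 comparisons, by 1.40, 1.24, 1.84 and 1.44, while Sh3rf1 rose by 0.32, 0.49 and 0.40 in WT 4 h, KO 4 h and KO 8 h (0.04 in WT 8 h, adjusted p = 0.762). Fam107b, a paralogue of Fam107a, fell by 0.63 in WT at 4 h, 0.36 in WT at 8 h and 0.36 in the KO at 4 h. Kcnab2, a further beta subunit gene, fell in all 4, by 0.30, 0.64, 0.34 and 0.43. Doc2a had differences of 0.36, -0.05, 0.72 and -0.07 and was not called, and Kcnt2 1.18, 0.69, 0.06 and 0.76, also not called. Greb1l rose in 3 of the 4, by 0.62 in WT 8 h, 0.44 in KO 4 h and 0.67 in KO 8 h.

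Other potassium channel genes were near or below the share of all genes in the upward direction. Of 66 measured, 7 rose and 11 fell in WT at 4 h, 2 and 8 in WT at 8 h, 7 and 14 in the KO at 4 h, and 10 and 10 in the KO at 8 h. Kcnip3, a calcium-binding Kv4 channel partner, rose by 2.17, 1.67, 1.97 and 1.98, and Kcnk1, a leak channel, by 1.71, 0.88, 1.85 and 1.59. Kcns3, a silent subunit like Kcnv2, fell by 1.34 in WT at 4 h and by 1.07 in the KO at 4 h.

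The lists around single members were small. The shares of all genes that rose were 14.8, 8.66, 23.2 and 24.2% in WT 4 h, WT 8 h, KO 4 h and KO 8 h. Those that fell were 21.1, 13.5, 18.2 and 17%. Of 31 exocytosis genes measured, which include Doc2a, 6, 1, 5 and 7 rose and 4, 2, 6 and 5 fell in that order. Syt12 rose by 1.32 and Syt15 fell by 2.42 in WT at 4 h, both synaptotagmins. A list around Lrrc4 held its relatives, netrin-Gs and synaptic scaffolds, of which 4 were measured. Among these, Dlg4, a synaptic scaffold, rose by 0.76 and Lrrc4c, a relative of Lrrc4, fell by 0.44 in WT at 4 h. In WT at 8 h and in the KO at 8 h, 1 of the 4 rose and 1 fell, and none was called in the KO at 4 h. Of 13 JNK scaffold genes measured, 3 rose and 2 fell in WT at 4 h and 5 and 3 in the KO at 8 h, Spag9 by 0.47 and 0.63. In WT at 8 h 3 of these genes rose and 1 fell, and in the KO at 4 h 4 rose and 2 fell. Of 7 genes in the list of steroid receptors, which holds Greb1l too, 0 rose and 2 fell in WT at 4 h, among them the glucocorticoid receptor gene Nr3c1 by 0.80 by its brightest probe, and 2 rose and 4 fell in the KO at 8 h. In WT at 8 h 1 of the 7 rose and 2 fell, and in the KO at 4 h 1 rose and 3 fell.

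Genes whose pattern over the arrays was most like that of each member were found by Pearson correlation, as a description over arrays that share treatment. The closest to Kcnab1 were Mkx (r = 0.986), Egfr (r = 0.981) and Trp53inp1 (r = 0.980), and to Kcnv2 Svopl (r = 0.984), Slc25a13 (r = 0.975) and Egfr (r = 0.972). Trp53inp1 was also among the 3 closest to Fam107a (r = 0.984, after Myrip at 0.985) and to Doc2b (r = 0.972, beside Glul at 0.972). Clca3a1 was the closest to Serpina3k (r = 0.944) and among the closest to Kcnt1 (r = 0.975), beside Hipk3 (r = 0.979) and Kcnip3 (r = 0.975). The closest to Lrrc4 were Tecrl (r = 0.980) and Uchl1 (r = 0.978), and to Sh3rf2 Myct1 (r = 0.967) and Fzd2 (r = 0.966). The best match of Greb1, Piga, reached r = 0.890. Among the members themselves, Kcnab1 and Kcnv2 were the most alike (r = 0.977), and with each array taken relative to its group mean that value was 0.350.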

How the data were processed

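Spot intensity values were taken from the scanner output as deposited by the authors. The file headers give Agilent Feature Extraction 10.7.3.1, and the submitters' processing notes 10.6. Per the file headers, the processed intensity has the background subtracted and no scaling across arrays. A deposited table of log2 values, whose method the sources do not state, was used as an alternative. Control spots and outlier spots (0.101 to 0.908%) were left out, no spot was saturated, and spots of a probe were averaged. Each array was then scaled by subtracting, in log2 units, its 75th percentile (1636 to 3331 on single arrays). A probe was kept where 3 or more arrays of some group had it well above background (33931 of 41174). Accessions were matched to RefSeq genes of GRCm38.p6, where 24844 probes matched 1 gene and 16330 none. The arrays' own design rests on another build, so no probe coordinates are given. The 8 slides of 2 to 4 arrays each held more than 1 group and were scanned on 1 day.

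The 29 arrays entered a single limma 3.58.1 fit (R 4.3.3) with a mean for each of the 8 groups and Benjamini-Hochberg adjustment over kept probes within each of 14 comparisons. In simulated data for dexamethasone against saline in WT at 4 h, with 200 of 33931 probes changed, the fit recovered 74% of those shifted by 1 and 89% of those shifted by 2 on the log2 scale. Named genes are the 9 members, Klf15 and Nr3c1 as checks, every measured close relative, up to 4 called genes of lowest p per list and the 3 genes most correlated with a member. The members, the gene lists and the alternatives were chosen with earlier results of these data known. Alternatives were quantile normalization, median scaling, no filter, a filter on all arrays, 1 probe per gene, slide as a fixed or random block, trend and robust variance, normexp (offset 50) with quantile normalization, the deposited table, and the fit without each array in turn. Python 3.11.15 with pandas 2.3.3 was used for the tables.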

Additional observations from a re-analysis of the deposited data

Results flagged for a closer look

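Of 60 combinations of probe and 4-array group, 4 had an array far from its neighbours by Dixon's ratio, where chance gives about 1 in 20. Fam107a read 3.43 in KO dex 8 h replicate 61, against 2.92 to 2.98 in the other arrays. Kcnt1 probe 2 read -4.75 in KO dex 4 h replicate 57, against -4.16 to -4.07. Kcnab1 probe 2 read -4.65 in WT saline 4 h replicate 34, against -9.47 to -9.12. Greb1 read -4.43 in WT saline 4 h replicate 36, against -7.66 to -7.46.

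The genotype difference in the dexamethasone effect at 8 h, fitted in limma, passed for 3 of the 12 probes, against 3.48% of all probes. The fitted effect was larger in the KO by 1.02 for Kcnab1 probe 1 (adjusted p = 0.0324, held in 14 of 24 alternatives). For Lrrc4 it was larger by 0.93 (adjusted p = 0.0438, held in 9 of 24). For Kcnv2 the fitted value was 1.42 (adjusted p = 0.0211, held in 15 of 23), but 3 of its 4 groups were below background. Slide as a fixed block ended the calls of Kcnab1 and Kcnv2. The genes were chosen on these dexamethasone effects, so the p-values describe them and are no independent test.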

How the results depend on the processing

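Of 3100 values of single probes under an alternative, 2928 kept their direction and their side of the threshold or moved by less than the replicate spread, 102 moved further, 57 fell below the threshold, 13 passed it anew and none reversed. Of the 102, 48 arose with normexp and quantile normalization and 35 in the deposited table, which both give smaller dexamethasone effects for dim probes. No paired analysis was possible because the groups share no replicate numbers, and slide was used as a block instead.

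The percent of all probes called moved by more than 1.5 times as follows, and the cause was not tested. KO against WT was 18.4 under saline at 4 h (normexp 9.53, deposited table: 8.91, without 1 array 8.85 to 18.4) and 11.6 at 8 h (median scaling 5.03, slide as a fixed block 21.2, as a random block 21.3, without 1 array 3.78 to 12.6). Under dexamethasone it was 0.572 at 4 h (median scaling 0.351, 1 probe per gene 0.958, random slide block 0.955, without 1 array 0.363 to 0.498) and 2.87 at 8 h (median scaling 1.36, no filter 1.90, 1 probe per gene 5.25, fixed slide block 1.15, deposited table: 1.84, without 1 array 1.22 to 4.13). The genotype difference in the dexamethasone effect was 8.93 at 4 h (quantile 5, median scaling 3.81, no filter 5.39, 1 probe per gene 14.3, normexp 2.86, deposited table: 2.19, without 1 array 3.11 to 12.6) and 3.48 at 8 h (quantile 1.84, median scaling 0.354, no filter 1.68, filter on all arrays 5.52, 1 probe per gene 6.50, fixed slide block 0.781, normexp 1.10, deposited table: 0.866, without 1 array 0.701 to 5.35). Saline at 8 against 4 h was 1.54 in WT (quantile 0.852, median scaling 0.486, no filter 0.843, random slide block 3.07, normexp 0.790, deposited table: 0.675, without 1 array 0.206 to 2.53) and 0.663 in the KO (1 probe per gene 1.02, random slide block 1.38, without 1 array 0.168 to 0.707). The change of the dexamethasone effect with time was 4.72 in WT (median scaling 3.04, fixed slide block 7.44, random 8.65, without 1 array 2.79 to 6.30) and 2.02 in the KO (median scaling 1.03, no filter 1.30, random slide block 3.96, without 1 array 1.02 to 1.94). Dexamethasone in WT at 8 h was 18.7 (without 1 array 12.2 to 18.0).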
